A study of Mus musculus with 12 samples.

Results

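The Langerhans-like genes low in FceRIa-positive macrophages are 8 genes of the 53801 in the count tables: Cd207, Epcam, Cdh1, Ly75, P2rx2, Cyp4f37, Lpar3 and Trp53i11. They were chosen either for their place in Langerhans cell identity or because they were much lower in the positive macrophages, so their difference between the macrophage groups is given below as a description and without a test. RNA was sequenced in 12 bulk libraries from cutaneous squamous cell carcinomas of FVB mice, whose age the labels do not give. The macrophages were cells sorted for CD45 and F4/80, and surface FceRIa, the alpha chain of the receptor that binds IgE with high affinity, divided them into 3 negative and 3 positive libraries. The carcinoma cells were basal tumor cells carrying a Rosa-YFP lineage mark and the integrins CD49f and CD29. They were divided by mScarlet fluorescence, which reports TGF-beta signalling, into 3 reporter-negative and 3 reporter-positive libraries. Whether the macrophage donors carried these alleles, and what drives the YFP mark, is not given in the sources used here.

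Langerhans cells are macrophage-lineage cells of the epidermis that mature in response to TGF-beta and take on features of dendritic cells. They take up antigen through C-type lectin receptors such as langerin and DEC-205, and they stay anchored among keratinocytes through E-cadherin and EpCAM, both of which keratinocytes and carcinoma cells also make. On activation they loosen these contacts and migrate to lymph nodes. The remaining members act in extracellular ATP sensing (P2rx2), lysophosphatidic acid sensing (Lpar3) and lipid oxidation (the cytochrome P450 gene Cyp4f37), and Trp53i11 is named as a p53-inducible gene.

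Promoters of the members are shown as a description. The members were chosen partly for their drop in the positive macrophages, so their shared difference is not read as shared control. RefSeq start sites (GRCm38.p6) were matched for Cd207, Epcam, Ly75, Cyp4f37, Lpar3 and Trp53i11, and Cdh1 and P2rx2 had no entry. The 250 bases before each start were searched on both strands for GAGGAA (the core bound by PU.1 and other ETS factors), TGNGGT (RUNX), CAGAC (the CAGA core of SMAD sites), CAGGTG (an E-box bound by SNAI factors) and TATAAA (the TATA box). These motifs do not contain one another. The 4 promoters with a match are printed 5′ to 3′ with the matches in capitals, a match on the other strand appearing as its reverse complement. They lie at chr6:83677858-83678107 (minus strand), chr2:60383274-60383523 (minus), chr17:87635729-87635978 (plus) and chr17:32621069-32621318 (plus).
Cd207: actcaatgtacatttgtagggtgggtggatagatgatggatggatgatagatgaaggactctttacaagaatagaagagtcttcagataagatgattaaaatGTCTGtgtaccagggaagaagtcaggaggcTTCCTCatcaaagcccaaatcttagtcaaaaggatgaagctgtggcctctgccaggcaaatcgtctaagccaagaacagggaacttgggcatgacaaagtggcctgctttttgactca
Ly75: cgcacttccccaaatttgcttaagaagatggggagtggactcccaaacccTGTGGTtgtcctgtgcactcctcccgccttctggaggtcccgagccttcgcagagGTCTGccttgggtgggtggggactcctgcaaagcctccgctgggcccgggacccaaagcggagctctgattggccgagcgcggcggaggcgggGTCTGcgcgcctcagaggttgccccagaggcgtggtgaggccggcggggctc
Epcam: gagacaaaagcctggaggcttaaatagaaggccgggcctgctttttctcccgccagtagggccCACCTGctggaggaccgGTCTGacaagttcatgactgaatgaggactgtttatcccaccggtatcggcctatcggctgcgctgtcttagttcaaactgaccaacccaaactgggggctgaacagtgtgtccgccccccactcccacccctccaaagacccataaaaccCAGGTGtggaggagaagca
Cyp4f37: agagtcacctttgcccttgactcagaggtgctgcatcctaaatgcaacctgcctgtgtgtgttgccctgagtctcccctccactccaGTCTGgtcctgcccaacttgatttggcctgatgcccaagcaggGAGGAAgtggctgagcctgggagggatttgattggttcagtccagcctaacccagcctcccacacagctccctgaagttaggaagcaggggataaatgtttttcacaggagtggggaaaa
The SMAD core was found in 4 of the 6 promoters (Cd207, Cyp4f37, Epcam and Ly75), and in 42.2% of all 32851 promoter windows of this length. The ETS core was found in Cd207 and Cyp4f37 (23.3% of all windows), the RUNX core in Ly75 (40.1%) and the E-box in Epcam (17.2%). The TATA box was in 0 of the 6, against 12.4% of all windows. These are matches of letters in a window and are not measured binding.

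All 8 members were lower in the FceRIa-positive macrophages, and for each of them the highest positive library lay below the lowest negative library. Levels are in CPM (counts after scaling for library size) and differences are log2 values, positive minus negative, with standard errors. The log2 differences ran from -2.10 for Cdh1 to -4.92 for Cyp4f37, with a median of -3.83 beside a median near 0 over the 14988 genes tested. Over all of those genes, 9.78% had positive libraries entirely below the negative ones. The members were picked on this comparison, so nothing is read from their count. In order of log2 difference, counted from the most negative, Cyp4f37 stood at place 13 and P2rx2 at place 15, while Cdh1 stood at place 163. In bulk RNA, fewer cells that express a gene and less of its RNA per cell cannot be told apart.

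**Figure D1:**
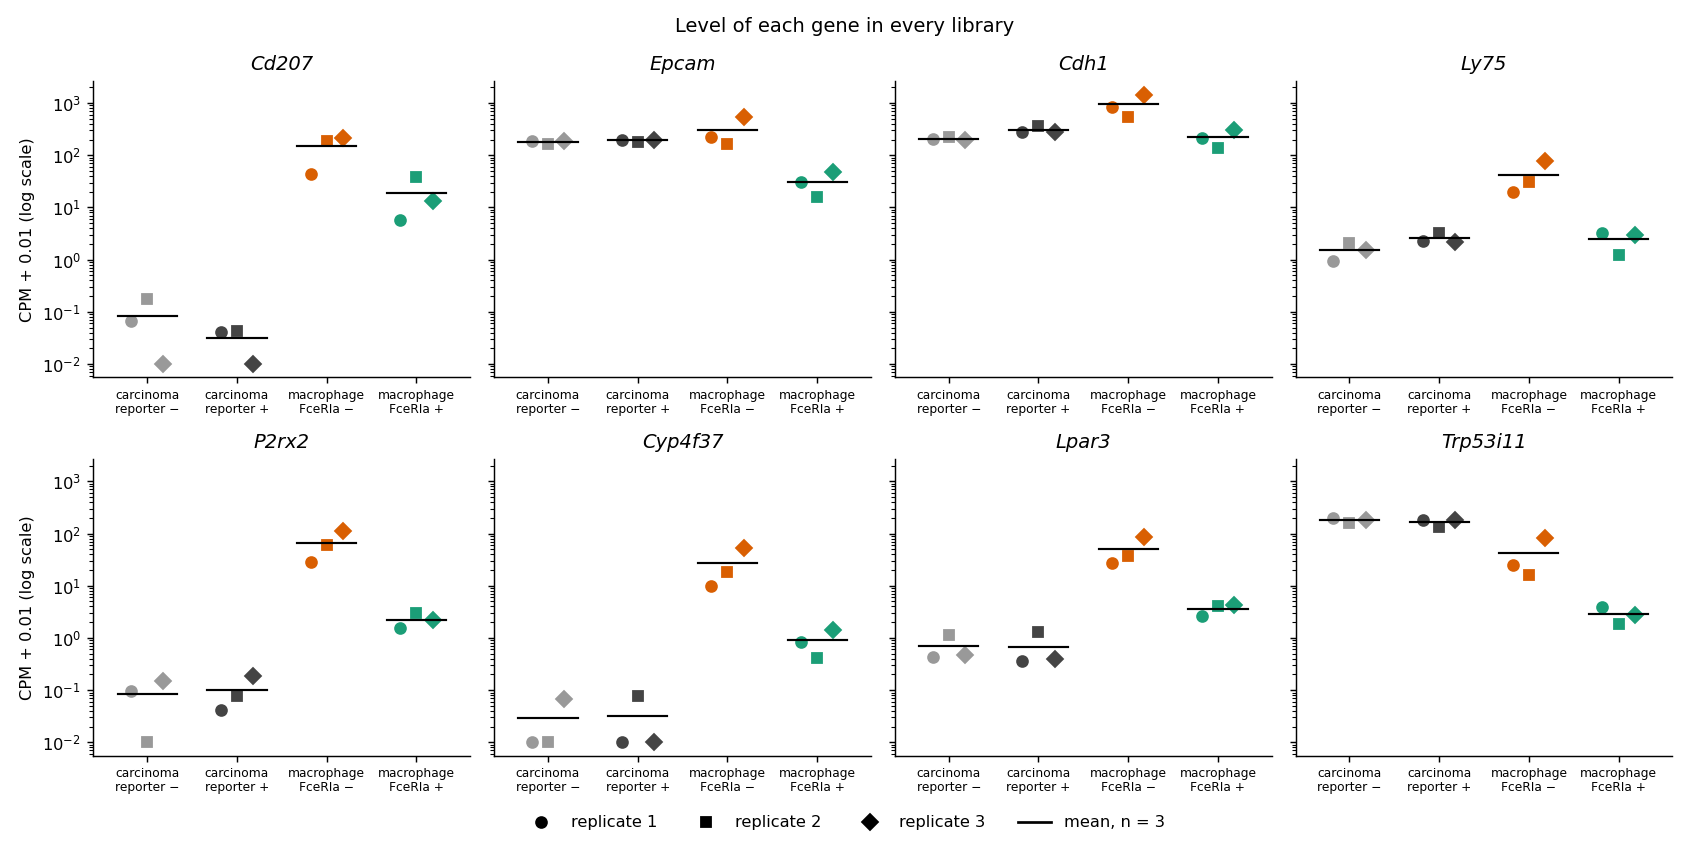
CPM of each member in the 12 libraries, on a log axis with 0.01 CPM added, with 3 libraries in each of the 4 groups; marker shapes give the replicate number and lines the means. Each member is lower in the FceRIa-positive than in the FceRIa-negative macrophages, while Epcam, Cdh1 and Trp53i11 are also at over 100 CPM in every carcinoma library.

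Among the lectin receptors, Cd207 encodes langerin, the receptor that forms the Birbeck granules of Langerhans cells. The gene (ENSMUSG00000034783, chromosome 6, 83671215 to 83677857, GRCm38, minus strand) was at 44.2, 188 and 210 CPM in FceRIa-negative replicates 1, 2 and 3 and at 5.77, 37.7 and 13.3 CPM in the positive ones. The means were 147 ± 89.8 and 18.9 ± 16.7 CPM (SD, n = 3), a log2 difference of -2.96 ± 0.83. The groups lay close together here: negative replicate 1 was 1.17 times positive replicate 2. Without positive replicate 2 the log2 difference was -3.95. Clec4f, the neighbouring lectin gene on chromosome 6, had 0 or 1 count in every macrophage library.

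Ly75 (ENSMUSG00000026980, chromosome 2, 60292103 to 60383303, minus strand) encodes DEC-205, an endocytic receptor of the mannose receptor family. It was at 19.9, 30.6 and 76.2 CPM in the negative and 3.20, 1.23 and 3.01 CPM in the positive libraries, with means of 42.2 ± 29.9 and 2.48 ± 1.09 CPM. The log2 difference was -4.09 ± 0.62, and -3.37 without negative replicate 3. The groups were far apart, since the lowest negative library was 6.20 times the highest positive one. Ly75 overlaps the antisense gene Gm13571, which had 2 to 6 counts per macrophage library. The adjacent gene Cd302 had 2920 to 4276 counts in the negative and 3683 to 4799 in the positive libraries.

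Cdh1 (ENSMUSG00000000303, chromosome 8, 106603351 to 106670246, plus strand) encodes E-cadherin, the adhesion molecule of adherens junctions. It was at 846, 547 and 1455 CPM in the negative and 217, 140 and 306 CPM in the positive libraries. The means were 949 ± 463 and 221 ± 83.3 CPM, a log2 difference of -2.10 ± 0.43. Cdh1 kept the largest share of its level, with 21.03% to 25.6% of the negative library left in the positive library of the same number. Epcam (ENSMUSG00000045394, chromosome 17, 87635979 to 87651129, plus strand) encodes an epithelial adhesion molecule that Langerhans cells also carry. It was at 224, 163 and 529 CPM in the negative and 30.3, 16.1 and 47.0 CPM in the positive libraries. The means were 306 ± 196 and 31.1 ± 15.5 CPM, a log2 difference of -3.29 ± 0.57, and -2.66 without negative replicate 3. For both adhesion genes replicate 3 was highest and replicate 2 lowest within each group.

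Because keratinocytes express both adhesion genes, keratinocyte markers were measured in the same libraries. All 15 markers were detected in every macrophage library, with a summed level of 378 to 3764 CPM in the negative and 249 to 2709 CPM in the positive libraries. Replicate 3 had the lowest sum in each group. The keratin gene Krt14, of the basal layer, was at 1706, 1237 and 129 CPM in negative replicates 1, 2 and 3. As a share of the mean of the 6 carcinoma libraries, the median marker was at 0.457% to 5.48% in the negative macrophages. The markers differed widely in this share. Krt10 and Krt1, keratins of differentiating keratinocytes, were at 61.4% to 91.0% and 25.9% to 65.5%, and Krt15 was at 12.6% to 24.9%. The carcinoma means of Krt10, Krt1 and Krt15 were low, at 27.8, 99.95 and 42.6 CPM, against 35224 CPM for Krt14. Cdh1 was at 327%, 211% and 562% of its carcinoma mean in negative replicates 1, 2 and 3, and Epcam at 121%, 88.3% and 286%. In the fit with the replicate number as a block, 12 of the 15 markers fell in the positive macrophages (6, 7 and 15 without pair 1, 2 or 3), where 10.2% of all tested genes fell. Without the block edgeR and DESeq2 called 0 of the 15 (0 had an unadjusted edgeR p under 0.05), the libraries of the groups overlapped for all 15, and the median log2 difference was -0.56. Trp53i11 was at 14.6%, 9.15% and 48.6% of the carcinoma mean in negative replicates 1, 2 and 3. In positive replicates 1, 2 and 3 it was at 2.28%, 1.08% and 1.61%, where the median marker was at 0.319% to 4.08%. The part of keratinocyte RNA in the levels and differences of Cdh1, Epcam and Trp53i11 was not tested.

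**Figure D2:**
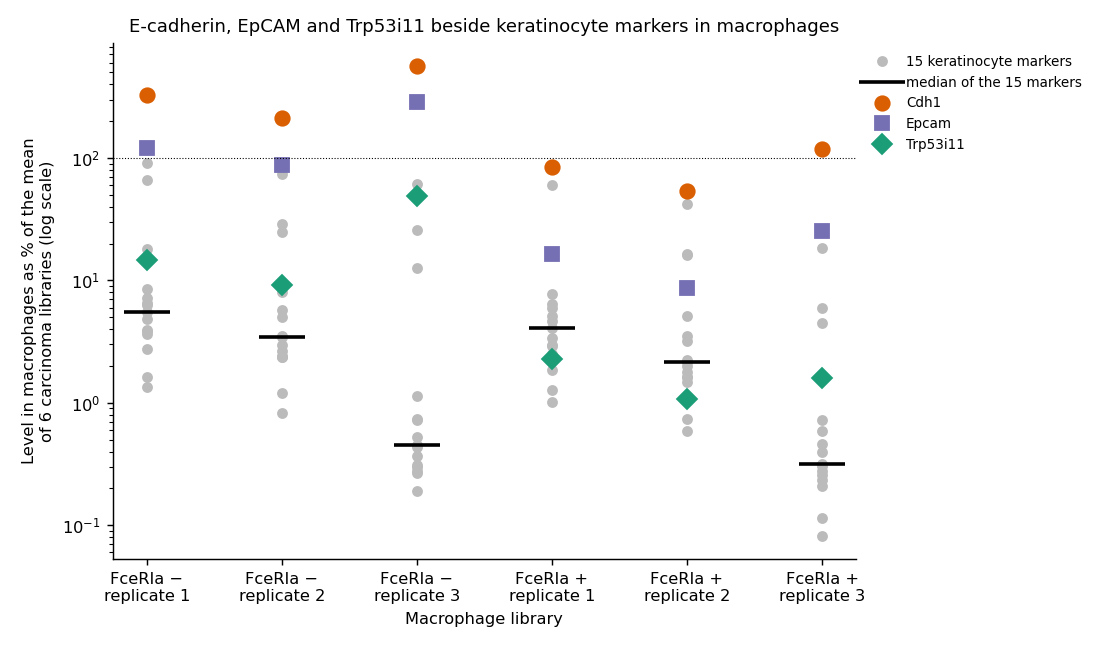
Level of Cdh1, Epcam and Trp53i11 and of 15 keratinocyte markers in each macrophage library, as a percentage of the mean of the 6 carcinoma libraries, on a log axis; black bars are medians of the 15 markers. In FceRIa-negative replicate 3 the median marker is at 0.457%, Krt10 at 61.4% and Cdh1 at 562%. In FceRIa-negative replicate 1 they are at 5.48%, 91.0% and 327%.

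P2rx2, Lpar3, Cyp4f37 and Trp53i11 were chosen for their drop rather than as established Langerhans cell genes. P2rx2 (ENSMUSG00000029503, chromosome 5, 110339812 to 110343212, minus strand) encodes an ATP-gated cation channel best known from neurons. It was at 28.7, 59.7 and 113 CPM in the negative and 1.55, 2.95 and 2.21 CPM in the positive libraries, a log2 difference of -4.91 ± 0.57, and -4.32 without negative replicate 3. The lowest negative library was 9.73 times the highest positive one, the widest gap among the 8 members. Lpar3 (ENSMUSG00000036832, chromosome 3, 146220963 to 146286186, plus strand) encodes a G protein-coupled receptor for lysophosphatidic acid. It was at 27.7, 36.3 and 86.4 CPM against 2.60, 4.04 and 4.18 CPM, a log2 difference of -3.80 ± 0.49, and -3.17 without negative replicate 3.

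Cyp4f37 (ENSMUSG00000062464, chromosome 17, 32621309 to 32636184, plus strand) belongs to the cytochrome P450 4F family of fatty acid hydroxylases. It was at 9.83, 18.3 and 52.2 CPM in the negative and 0.829, 0.409 and 1.41 CPM in the positive libraries. The log2 difference was -4.92 ± 0.78, and -4.02 without negative replicate 3. Whether reads of similar Cyp4f genes were counted for it was not tested. Of those genes Cyp4f16 had 4932 to 6157 counts in the negative and 2741 to 3103 in the positive libraries, Cyp4f18 had 1398 to 5080 and Cyp4f13 had 1116 to 1507 counts over all 6, and the neighbouring Cyp4f40 was at 0 to 0.0296 CPM. Trp53i11 (ENSMUSG00000068735, chromosome 2, 93187548 to 93201759, plus strand) was at 25.1, 15.7 and 83.5 CPM in the negative and 3.92, 1.86 and 2.77 CPM in the positive libraries. The log2 difference was -3.86 ± 0.70, and -2.85 without negative replicate 3. The gene directly abuts Tspan18 on the other strand. Tspan18 had 161, 225 and 362 counts in the negative and 27, 67 and 32 counts in the positive libraries.

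The members did not drop by the same factor. In libraries of the same replicate number the positive level was 1.96% to 5.39% of the negative level for P2rx2, 2.23% to 8.43% for Cyp4f37 and 8.88% to 13.5% for Epcam. Cd207 varied most in absolute share, at 13.1%, 20.1% and 6.35% for numbers 1, 2 and 3. All 8 members were highest in negative replicate 3, whereas the highest positive library was replicate 3 for 4 members, replicate 1 for 2 and replicate 2 for 2. The ratio of Cdh1 to Cd207 CPM was 19.1, 2.91 and 6.94 in negative replicates 1, 2 and 3, and 37.5, 3.71 and 23.0 in their positive counterparts, so each number kept its rank order in both groups. The ratio of Cdh1 to Epcam was narrower, at 2.75 to 3.77 in the negative and 6.51 to 8.67 in the positive libraries, without overlap.

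**Figure D3:**
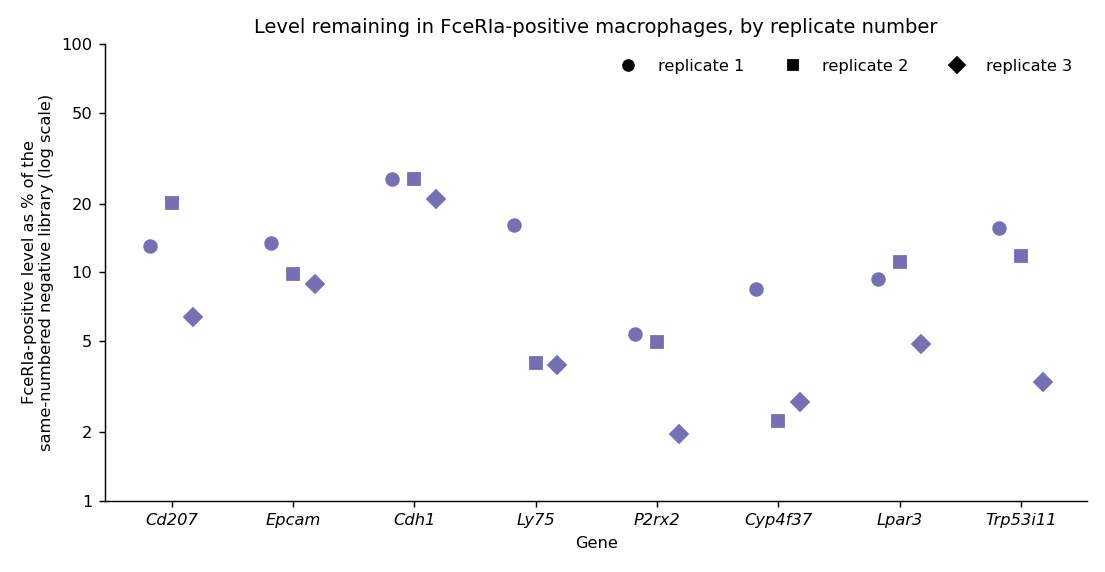
Level of each member in the FceRIa-positive library as a percentage of the FceRIa-negative library with the same replicate number, on a log axis, with 1 point per replicate number. P2rx2 lies at 1.96% to 5.39% and Cdh1 at 21.03% to 25.6%.

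Divided by exonic length, the order of levels in the FceRIa-negative macrophages was Cdh1 at 208 ± 101, Epcam at 139 ± 89.2 and Cd207 at 96.7 ± 59.0 CPM per kb (SD, n = 3). P2rx2, Lpar3, Trp53i11, Cyp4f37 and Ly75 followed at 26.1 ± 16.5, 20.3 ± 12.9, 11.2 ± 9.95, 9.28 ± 7.76 and 6.12 ± 4.33 CPM per kb. The libraries of all neighbours in this order overlapped, also those of Cd207 (lowest 29.0) and P2rx2 (highest 43.9 CPM per kb). In the positive macrophages Cdh1 was again first, at 48.3 ± 18.2 CPM per kb, above Epcam at 14.2 ± 7.04 and Cd207 at 12.4 ± 11.0, and its lowest library (30.5) lay above the highest of both (21.4 and 24.7). Lpar3 came next at 1.46 ± 0.36 CPM per kb.

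Across the 6 macrophage libraries, Pearson's r between the log2 CPM of 2 members ran from 0.678 (Cd207 with Cdh1) to 0.995 (Epcam with Cdh1) over 28 pairs. Between pairs without Cd207 it was at least 0.889. These libraries share the division by FceRIa, on which the members were chosen. Genes nearest to the mean standardised pattern of the 8 members, among 11481 genes, were Gapt (r = 0.999), Mxd3, Cldn1 and Spn (0.998, 0.998 and 0.997), Gpr4, Clec11a, Glb1l2 and Selenoo (0.997, 0.997, 0.995 and 0.995). Of these Cldn1, a tight junction protein of keratinocytes and Langerhans cells, went from 85.9, 99.8 and 264 CPM in the negative to 6.02, 4.83 and 7.72 CPM in the positive libraries. Selenoo differed little in size, at 15.003 to 16.8 against 12.8 to 13.4 CPM. Genes nearest to Cd207 alone were Knl1 (r = 0.999), Gpr141 (0.997), Gins3 (0.996), Rad54b (0.995) and Adam23 (0.994). Gpr141, an orphan G protein-coupled receptor gene, was at 351, 562 and 549 CPM in the negative and 170, 302 and 225 CPM in the positive libraries.

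Related genes that are not members were tested in the macrophage comparison with edgeR's quasi-likelihood test (two-sided, Benjamini-Hochberg adjusted over all 14988 genes, threshold 0.05). Without pairing, 0 of the 14988 genes were called, while 1243 higher and 1102 lower genes had an unadjusted p under 0.05 and DESeq2 called 658 higher and 605 lower. With the replicate number as a block, 10.8% of all genes rose and 10.2% fell. The counts below are from that blocked fit, and in each of these lists the unpaired fit called 0. Where leaving out 1 same-numbered pair moved a count by more than 1.5 times, that count is given.

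Of 11 further genes of Langerhans cell surface and lineage, 4 fell and 1 rose (2 rose without pair 2 or pair 3), with a median log2 difference of -0.20 without the block. Cldn1 fell by 4.45 on the log2 scale (SE 0.22, edgeR adjusted p = 5.71e-05 with the block and 0.0585 without). Cd24a, a surface sialoglycoprotein, fell by 1.99 (SE 0.20, edgeR adjusted p = 0.000611). Ccr6, a chemokine receptor, and Id2, an inhibitor of bHLH transcription factors required for Langerhans cells, also fell. Ccr6 was at 25.4, 0.651 and 56.4 CPM in the negative libraries, so it was almost absent from replicate 2, where Cd207 was at 188 CPM. Tgfbr2, a TGF-beta receptor chain, rose by 0.70 ± 0.09. Runx3 and Ahr, transcription factors of Langerhans cell maintenance, had log2 differences of 0.16 ± 0.08 and 0.19 ± 0.10 and were not called, and neither was Csf1r.

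Among genes whose products bind E-cadherin, 3 of 7 tested fell and 1 rose. Itgae, the gene of CD103, and Itgb7 encode the 2 chains of an integrin that binds E-cadherin. They fell by 2.69 (SE 0.30) and 1.61 (SE 0.14). The catenin gene Jup fell by 0.49, and Ctnnb1, the gene of beta-catenin, rose by 0.43 ± 0.08, a call that was lost without pair 1 or pair 2. Ctnna1 and Ctnnd1 were not called. Of the partners and proteases of EpCAM, 5 of 6 tested fell (3 without pair 1), Cldn1 being in this list as well. They included the membrane protease St14 (matriptase), which fell by 2.09 (SE 0.24), and its inhibitors Spint1 and Spint2, which fell by 3.16 (SE 0.35) and 1.64 (SE 0.31). Jup, St14, Spint1 and Spint2 had 37800 to 61499, 3977 to 5111, 1447 to 1975 and 5469 to 7249 counts in the carcinoma libraries. In the macrophage libraries they had 1400 to 4681, 426 to 3316, 69 to 1572 and 61 to 691 counts. The part of keratinocyte RNA in their differences was not tested.

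Of 5 tested lectin relatives of DEC-205 and langerin, 1 went the other way. The other 4 had log2 differences below 0 without the block, and the median over the list was -0.25. Mrc1, the mannose receptor, rose by 1.56 ± 0.16 (edgeR adjusted p = 0.000611 with the block), from 993 ± 228 to 2947 ± 882 CPM. Of the other 4 tested lectin genes 0 were called, while without pair 3 the count of lower genes was 2. Of 6 tested P2X and pannexin genes, 3 rose and 2 fell (1 fell without any of the pairs). P2rx5 fell by 2.79 (SE 0.15), from 25.0 ± 13.3 to 3.43 ± 1.005 CPM. P2rx4 and P2rx7, ATP-gated channels of macrophages, rose by 0.82 ± 0.12 and 0.70 ± 0.08.

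Of the 9 genes of lysophosphatidic acid sensing and metabolism, 3 fell and 1 rose. Enpp2, which encodes the lysophosphatidic acid-producing enzyme autotaxin, rose by 3.35 ± 0.18, from 0.806 ± 0.348 to 8.14 ± 2.48 CPM. Plpp1, a phosphatase of lipid phosphates, fell by 3.94 (SE 0.35). Lpar4 fell from 0.531 ± 0.237 to 0.120 ± 0.0666 CPM, and without pair 1 or pair 3 the count of lower genes in the list was 1 and 2. In the Cyp4f family 1 of 5 tested genes fell (2 without pair 2 or pair 3). It was Cyp4f16, which fell by 0.84 (SE 0.09), from 148 ± 31.1 to 82.2 ± 8.47 CPM. Of 10 genes of p53 and its targets, 0 were called by edgeR with the block or by DESeq2 (1 rose without pair 3, and 2 had an unadjusted p under 0.05 with the block), and their median log2 difference was -0.01.

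**Figure D4:**
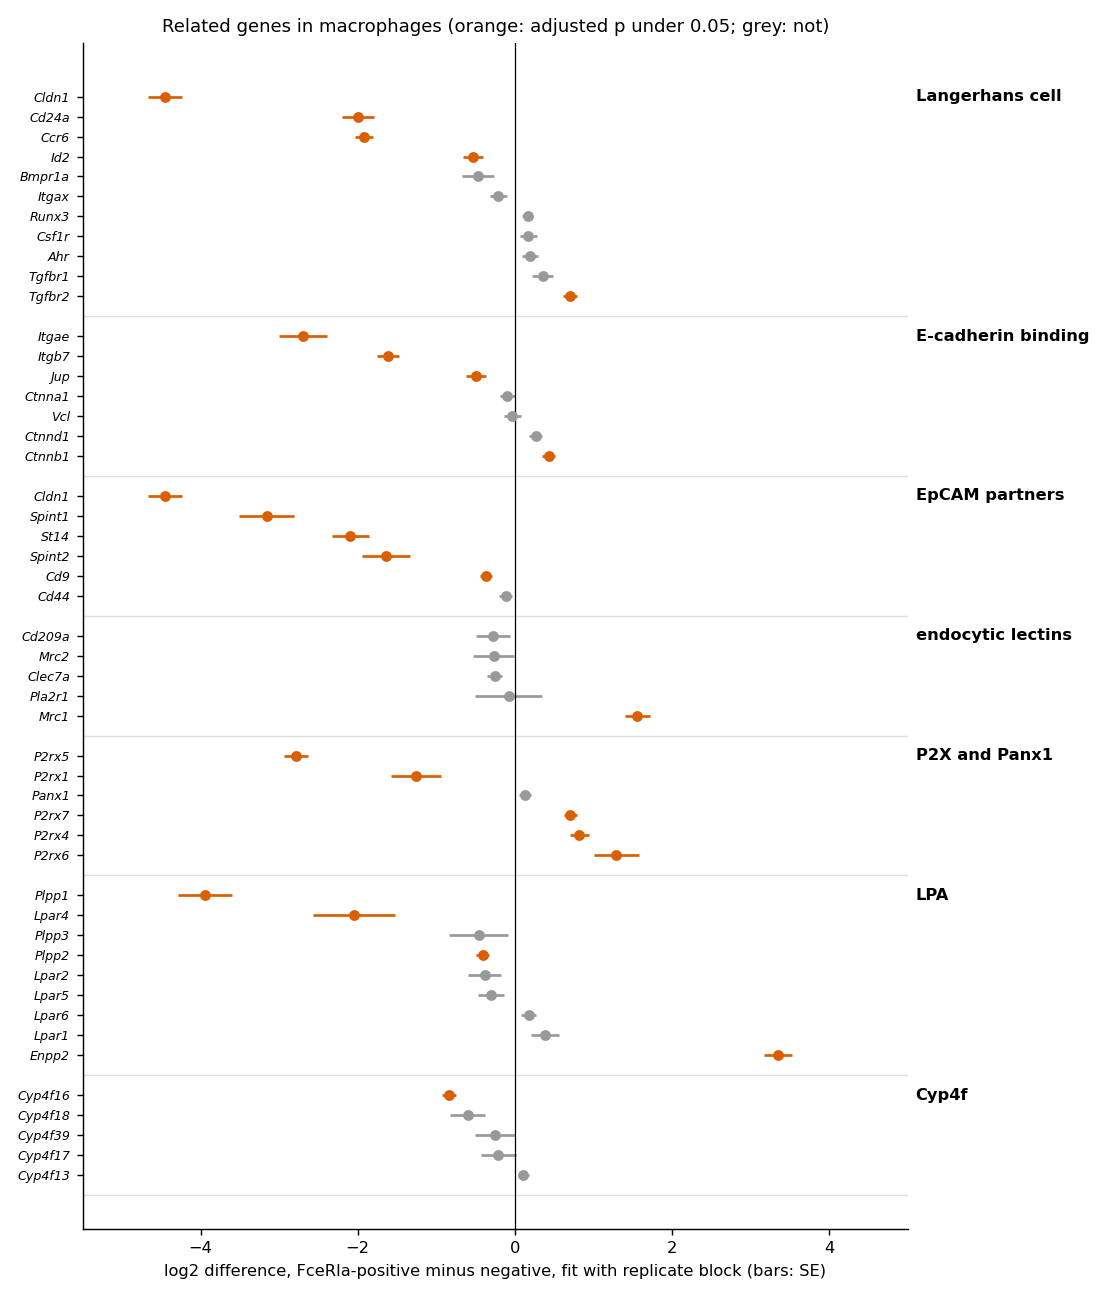
Log2 differences between FceRIa-positive and FceRIa-negative macrophages in the fit with the replicate block, with standard errors as bars, for genes of 7 lists related to the members; orange points had an adjusted p under 0.05. Cldn1 is the lowest point and Enpp2, at 3.35, the highest.

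Markers of other cells that the CD45 and F4/80 gate could hold were measured beside the members. All 3 genes shared by conventional dendritic cells (Flt3, Zbtb46 and Dpp4) fell, from a summed 25.2 to 40.5 CPM in the negative to 6.60 to 8.43 CPM in the positive libraries. Of 9 mature dendritic cell genes 5 fell (3 without pair 1) and 1 rose. The chemokine genes Ccl22 and Ccl17 fell by 3.66 and 1.41, and Cd83 rose by 0.74 ± 0.08. The defining type 1 dendritic cell genes Xcr1 and Clec9a were at most at 0.488 and 0.163 CPM. Other genes of that list were higher. Itgae, Naaa and Tlr3 had 653 to 1688, 11888 to 12433 and 660 to 1356 counts in the negative libraries. In the positive libraries they had 139 to 172, 6339 to 9312 and 899 to 1411 counts. T cell genes summed to 40.1, 4.91 and 45.5 CPM in the negative and 3.67, 2.29 and 5.98 CPM in the positive libraries, and all 5 tested fell (2 without pair 1). In negative replicate 2 Cd3g was at 0.674 CPM and Cd207 at 188 CPM. Among the negative libraries Cdh1, Epcam and Trp53i11 were lowest in replicate 2, as the T cell sum was. The other members were lowest in replicate 1. All members and the T cell sum were highest in negative replicate 3. Of 12 macrophage genes 11 rose (7 without pair 1), and their sum was 9586 to 12783 CPM in the negative and 17029 to 18902 CPM in the positive libraries. Their part in the difference of the members was not tested.

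The labels were checked against the genes of the sort. Fcer1a, which encodes the sorted chain, had 0, 4 and 3 counts in the negative and 2, 7 and 1 counts in the positive libraries, so its RNA did not separate the groups. Adgre1, the gene of F4/80, was at 487 to 687 CPM in the negative and 890 to 970 CPM in the positive libraries. Ptprc, the gene of CD45, had 38134 to 58351 counts in the macrophage and 24 to 78 in the carcinoma libraries. Itga6 and Itgb1, the genes of CD49f and CD29, had 27032 to 43388 and 31764 to 45461 counts in the carcinoma libraries. In the macrophage libraries they had 1683 to 3750 and 17765 to 25189 counts. For Xist, the FceRIa-negative and FceRIa-positive libraries had 4 and 6 counts in replicate 2 and 16108 and 18122 counts in replicate 3. For the Y-linked Ddx3y the counts were 5972 and 4817 in replicate 2 and 3 and 6 in replicate 3, so these replicates held RNA of different mice. Replicate 1 held both kinds of transcript. Nothing in the labels says that the other replicates are separate animals. Macrophage replicate 1 differed from replicates 2 and 3 by more than counting noise. The chi-square of their counts over genes, divided by its degrees of freedom, was 114 and 70.6 in the negative libraries. It was 113 and 57.2 in the positive ones, where values near 1 are counting noise. The labels do not say whether replicate 1 was an independent sample. The spread behind the p-values is that of these samples, and for the carcinoma replicates it may be technical.

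In the carcinoma cells, which the choice of members did not use, Cdh1 was the member with the clearest difference between reporter groups. It was at 202, 226 and 197 CPM in reporter-negative replicates 1, 2 and 3 and at 282, 367 and 280 CPM in the positive ones, without overlap (14.6% of all tested genes had every positive library above the negative ones). The log2 difference was 0.57 ± 0.12 without pairing (edgeR adjusted p = 0.0881) and 0.56 ± 0.06 with the replicate block (edgeR adjusted p = 0.0058). Carcinoma replicates 1 and 3 were nearly alike: the chi-square of their counts over genes, divided by its degrees of freedom, was 3.13 in the reporter-negative and 1.65 in the reporter-positive cells, against 46.8 to 98.9 for any pair with replicate 2. Values near 1 are counting noise, so these groups hold little more than 2 distinct samples each, their p-values may be too small, and the numbers do not pair replicates 1 and 3. DESeq2 on all 6 libraries also called Cdh1 (DESeq2 adjusted p = 0.00138), and so did the unpaired edgeR fit without positive replicate 2 (edgeR adjusted p = 0.0382), which leaves replicates 1 and 3 alone in that group. Epcam was at 165 to 186 CPM in the negative and 182 to 198 CPM in the positive libraries, a log2 difference of 0.11 ± 0.07 (edgeR adjusted p = 0.489, and 0.16 with the block). Trp53i11 was at 159 to 194 and 136 to 181 CPM, a difference of -0.11 ± 0.13 (edgeR adjusted p = 0.73).

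Ly75 was present at a low level in the carcinoma libraries, at 0.939, 2.09 and 1.53 CPM in the reporter-negative and 2.28, 3.28 and 2.20 CPM in the reporter-positive ones. It was called with the block only (0.79 ± 0.20, edgeR adjusted p = 0.0442, and 0.272 without), and the blocked call was lost without pair 1 or pair 3. The 12 macrophage genes summed to 16.6 to 47.0 CPM in the reporter-negative and 22.3 to 65.8 CPM in the reporter-positive carcinoma libraries and were highest in replicate 2 of each group, as Ly75 was. Their part in the Ly75 difference was not tested. Lpar3 was at 0.348 to 1.28 CPM, with a log2 difference of 0.01 ± 0.64 (edgeR adjusted p = 0.996) whose sign changed between settings. Cd207, P2rx2 and Cyp4f37 had 0 to 5 counts per carcinoma library and were too low to be tested. A count of 0 allows up to 3 counts, or 0.0851 to 0.107 CPM in these libraries, which covers counting error only. Of the 5 tested members, 0 rose without pairing and 2 rose with the block, where 10.7% of the 13604 tested genes rose (0.573% without pairing).

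Macrophages and carcinoma cells were compared in a fit of all 12 libraries, taking the mean of the macrophage groups minus the mean of the carcinoma groups. Cd207, P2rx2 and Cyp4f37, at 0 to 5 counts per carcinoma library, entered this fit only through the macrophages in which they are high, so they had to differ and are not counted. Of the other 5 members 3 were higher and 2 lower in the macrophages, while 44.8% of the 16279 tested genes were called higher and 40.6% lower. Cell type, count table and any batch cannot be told apart in this comparison. The 2 lower members were Trp53i11, with a log2 difference of -4.06 ± 0.39 (edgeR adjusted p = 1.86e-06), and Epcam, with -1.003 ± 0.30 (edgeR adjusted p = 0.00825). Cdh1 was higher, by 0.77 ± 0.24 (edgeR adjusted p = 0.011), Ly75 by 2.28 ± 0.38 and Lpar3 by 4.24 ± 0.44.

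The average over the macrophage groups hides their spread for the adhesion genes and Ly75. Cdh1 was highest in the FceRIa-negative macrophages, whose lowest library (547 CPM) lay above the highest carcinoma library (367 CPM), while the FceRIa-positive macrophages (140 to 306 CPM) overlapped the carcinoma cells. The order of the Epcam means was FceRIa-negative macrophages (306 CPM), reporter-positive carcinoma cells (192), reporter-negative carcinoma cells (178) and FceRIa-positive macrophages (31.1 CPM). Negative macrophage replicate 2, at 163 CPM, lay below all carcinoma libraries, so the first 3 of these groups overlapped, and the positive macrophages lay below all of them. Divided by exonic length, Ly75 was at 0.178 to 0.464 CPM per kb in the FceRIa-positive macrophages. That lay within the 0.136 to 0.475 CPM per kb of the carcinoma libraries. The lowest FceRIa-negative library was at 2.88 CPM per kb, so the higher Ly75 average came from the FceRIa-negative macrophages. Trp53i11 was highest in the carcinoma cells, at 136 to 194 CPM, above every macrophage library.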

How the data were processed

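The authors deposited whole-number read counts per gene for 3 libraries in each of 4 groups. FastQC and STAR and the build mm10 (GRCm38) are named in the submitters' processing notes, while the counting tool, its strand setting and its annotation were not given in the sources used here. Library totals were 33704786 to 40041144 counts in the macrophages and 27951632 to 35088897 in the carcinoma cells. The 4 count columns that match no sample were left out. Of the 53801 gene IDs, 53620 were found in GENCODE M21, which gave positions and exonic lengths.

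Counts were fitted with edgeR 4.0.16 (R 4.3.3; TMM scaling, filterByExpr, quasi-likelihood test, two-sided), after the code was tested on simulated data. Benjamini-Hochberg adjustment ran over all tested genes, and the standard error is the log2 difference divided by the square root of F. The design had no replicate block. Same-numbered libraries deviated together in every pair (r of 0.449, 0.703 and 0.488 in the carcinoma cells, and 0.688, 0.787 and 0.734 in the macrophages), so the blocked fit is printed where it changes a call. In the carcinoma cells numbers 1 and 3 were not separated from each other (r of 0.488 and 0.483 across them). DESeq2 1.42.0, other scalings and filters, and leaving out libraries or same-numbered pairs were alternatives, the last chosen after seeing the data. Correlations used log2(CPM + 0.1) of genes with a mean of at least 1 CPM.

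The members and the gene lists were chosen with earlier results of these data known, and 1 gene is left out of the lists and not reported here. Genes named were the members, the genes of the sort, and the 8 and 5 genes nearest in pattern to the members and to Cd207. From the lists, the 3 genes with the smallest p were to be named, but for several lists some or all of them are not. Other list genes and neighbouring genes were named after their values were seen.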

Additional observations from a re-analysis of the deposited data

How the results depend on the processing

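In the carcinoma cells 78 genes were called higher and 32 lower without pairing. The counts were 708 and 455 with DESeq2, 1450 and 999 with the replicate block, and 173 higher without a filter on low counts. With the block and without pair 1, 2 or 3 they were 1055 and 498, 2927 and 2802, and 803 and 340. The fit without pair 2 rests on replicates 1 and 3 alone, which differ by little more than counting noise. Leaving out 1 library gave 0 to 391 higher and 0 to 230 lower. Of the members 0 were called higher, against 1 with DESeq2, 2 with the replicate block, 1, 3 and 1 with the block without pair 1, 2 and 3, and 0 to 1 without 1 library. In the macrophages 0 genes were called in either direction without pairing. The counts of higher and lower genes were 658 and 605 with DESeq2, 292 and 331 without a filter, and 1618 and 1524 with the replicate block. With the block and without pair 1, 2 or 3 they were 626 and 691, 1298 and 1374, and 1743 and 1606. Leaving out 1 library gave 0 higher and 0 to 2 lower. The log2 difference of Lpar3 in the carcinoma cells, 0.01, changed sign with DESeq2 (-0.000811), upper-quartile scaling (-0.00204) and the block (-0.0516). It also did so without reporter-negative replicate 1 (-0.24) or 3 (-0.21), without reporter-positive replicate 2 (-0.86, the lowest value without 1 library, the highest being 0.61), and with the block without pair 2 (-0.26) or 3 (-0.000887). That of Trp53i11, -0.11, was 0.00736 without reporter-positive replicate 2 and -0.19 at the lowest without 1 library. The cause of these changes was not tested. All 8 members stayed lower in the positive macrophages under each alternative run. They were picked on this comparison in the same libraries, so nothing is read from that. The counts of macrophages against carcinoma cells stayed within 1.5 times under each alternative. Depth limits Cd207, P2rx2 and Cyp4f37 in the carcinoma cells.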

Other observations

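Other leukocyte genes also differed between the macrophage groups in the fit with the replicate block, where the fit without it called 0 in each list. With the block 10.8% of all tested genes rose and 10.2% fell. All 5 monocyte genes fell, from a summed 916 to 1273 CPM in the negative to 567 to 935 CPM in the positive libraries. Of 5 neutrophil genes 4 fell (1 without pair 1), and of 7 mast cell and basophil genes 3 fell (1 without pair 1). The mast cell and basophil sum was 63.6, 8.65 and 139 CPM in negative replicates 1, 2 and 3 and 29.8, 7.31 and 35.9 CPM in the positive ones. Of 9 tested type 1 dendritic cell genes 2 rose and 3 fell (0 and 1 without pair 1), and of 7 type 2 dendritic cell genes 3 rose and 2 fell (1 and 1 without pair 1). Of 2 tested B cell genes and 5 fibroblast genes, 0 were called by edgeR with the block or by DESeq2, while without pair 1 the count of lower fibroblast genes was 2.

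In the carcinoma cells 10.7% of all tested genes rose in the reporter-positive cells with the block. Carcinoma replicates 1 and 3 were nearly alike and are not paired by their numbers, so the p-values behind these calls may be too small. Of 10 genes of p53 and its targets, 7 rose with the block (0 without), with a median log2 difference of 0.43. Among the partners and proteases of EpCAM 4 of 7 rose with the block (2 without pair 1 or pair 3, and 0 without the block), with a median of 0.21, while Epcam itself had a log2 difference of 0.11 ± 0.07. Of 10 tested further Langerhans cell genes 2 rose with the block (1, 4 and 1 without pair 1, 2 and 3) and 0 without it, and of 5 tested Cyp4f genes 3 rose with the block (1 without pair 3) and 0 without.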
